A study of Gallus gallus with 100 samples.

Results

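Whole pituitary glands of male broilers, which are meat chickens, were compared between 13 heat-stressed and 10 control birds at day 22. These 23 birds were all the samples labelled heat or control for this day with a column of values in the day 22 table, of 98 samples with values in the whole series. Light was on for 23 hours a day in both houses, and all birds came down to 25 °C as chicks. From day 21 the house of the heat-stressed birds was warmed every day to 35 to 37 °C from 7 am to 3 pm, while the control house stayed at 25 °C. For the glands of day 22 the labels give 8 hours of treatment. Each library was made from the gland of 1 bird with a stranded Illumina kit and sequenced on an Illumina HiSeq. Each treatment had 1 house, so house and heat cannot be told apart, and the p-values measure the spread between birds. Values are FPKM, fragments divided by the length of the transcript and by all mapped reads of a library, and positions are on the Gallus gallus version 4 genome (galGal4) as the table lists them.

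Warm cells lose the fold of some of their proteins. Heat shock factors then switch on genes for cytosolic chaperones, which are proteins that bind unfolded chains and return them to their fold. The HSP70 proteins take up short stretches of an unfolded chain, J-domain proteins deliver the chain to them, and HSP90 proteins finish the fold of many kinases and of steroid receptors. In the endoplasmic reticulum a separate set of chaperones does the same for secreted proteins, and unfolded protein there starts a response of its own. Cold-inducible RNA-binding proteins are known for the opposite relation to temperature in mammals, with more mRNA in cool cells and less in warm cells. In birds, as in mammals, heat also acts on the axis from hypothalamus to pituitary to adrenal gland, in which the pituitary releases corticotropin, cut from the product of POMC.

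The sum of FPKM was 226025 to 285784 in control libraries and 254687 to 278716 in those of heat-stressed birds, and the two-sided permutation test of this sum gave p = 0.234. Controls 1432 and 1437 held the lowest sums, 226025 and 238794. Relative depth was estimated from the most frequent ratio of each library to control 1523 among genes of low level. It went from 0.507 of the deepest library in control 1552 to 1 in control 1437 and gave a permutation p = 0.817. The number of genes that reached 1 FPKM (7677 to 8311) and the share of FPKM in the 10 most abundant genes (up to 23.5%) gave permutation p = 0.478 and 0.838. Control 1552 also had the lowest level of EEF1A1, a translation factor, with 15.6 FPKM. Heat birds 1282 and 1283 had 1146 and 1162 FPKM, and the other 20 birds 34.3 to 139 FPKM. The median correlation of control 1552 with the other libraries, in log2(FPKM + 1), was 0.856, the lowest. For the rest it was 0.903 to 0.933. Control 1552 held the lowest control value of HSPA2, HSP90AA1, AHSA1 and HSP90B1 and the highest of BAG3. The library numbers of the birds fell into runs, with heat birds only in 1282 and 1283, controls only in 1432 and 1437, and both in 1517 to 1526 and in 1549 to 1559. Whether these runs mark a batch is not given in the sources used here.

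The glands were labelled whole pituitary, yet the hormones that define the anterior lobe were low in both groups. Growth hormone (GH) was 25.8 ± 31.3 FPKM in controls (SD, n = 10) and 14.2 ± 3.84 FPKM in heat-stressed birds (SD, n = 13). Its highest values, 92.5 and 73.1 FPKM, were in controls 1432 and 1437, and all other birds had 1.07 to 26.6 FPKM. Prolactin (PRL) and the beta chain of thyrotropin (TSHB) had control medians of 0, and the beta chain of follitropin (FSHB) stayed at or under 0.347 FPKM in every bird. Of 34 listed anterior lobe transcription factors and releasing hormone receptors, 7 had a mean of 1 FPKM or more. In such bulk tissue, fewer cells of a type and less RNA per cell cannot be told apart.

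Of 8256 genes whose mean reached 1 FPKM, 10 were higher and 1 was lower in the heat-stressed birds. These calls are 0.121% and 0.0121% of the genes tested, at a Benjamini-Hochberg adjusted p under 0.05 in limma on log2(FPKM + 1), with no minimum fold. Higher genes were HSPA2, HSP90AA1, P4HA2, CRELD2, DNAJA4, AHSA1, HSP90B1, HSPA8 and BAG3, 9 of the 10, and the lower gene was CIRBP. Chaperones or partners of chaperones make up 7 of the 10 (HSPA2, HSPA8, HSP90AA1, HSP90B1, DNAJA4, AHSA1 and BAG3). HSPA2 was the 1 gene (0.0121%) with every heat-stressed bird above every control, and CIRBP the 1 gene (0.0121%) with every heat-stressed bird below every control. At an unadjusted p under 0.05 there were 166 higher (2.01%) and 241 lower genes (2.92%). Together these were 407 of 8256, where 5% would be reached by chance alone. The count of higher genes changed with the bird left out. It was 0 without any 1 of controls 1432, 1437, 1526, 1551 and 1552 or heat birds 1521 and 1549, and 1 to 5 without any 1 of controls 1523, 1524 and 1525 or heat birds 1283, 1519, 1522, 1558 and 1559. It was also 0 among the 11 heat and 8 control birds numbered 1500 and above, where CIRBP was the 1 gene called. Over the 23 fits with 1 bird left out, HSPA2 and P4HA2 were called in 15, HSP90AA1 in 14 and CRELD2 in 11. DNAJA4 was called in 9 of these fits, AHSA1 in 8, HSPA8 and HSP90B1 in 6 each and BAG3 in 5.

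**Figure D1:**
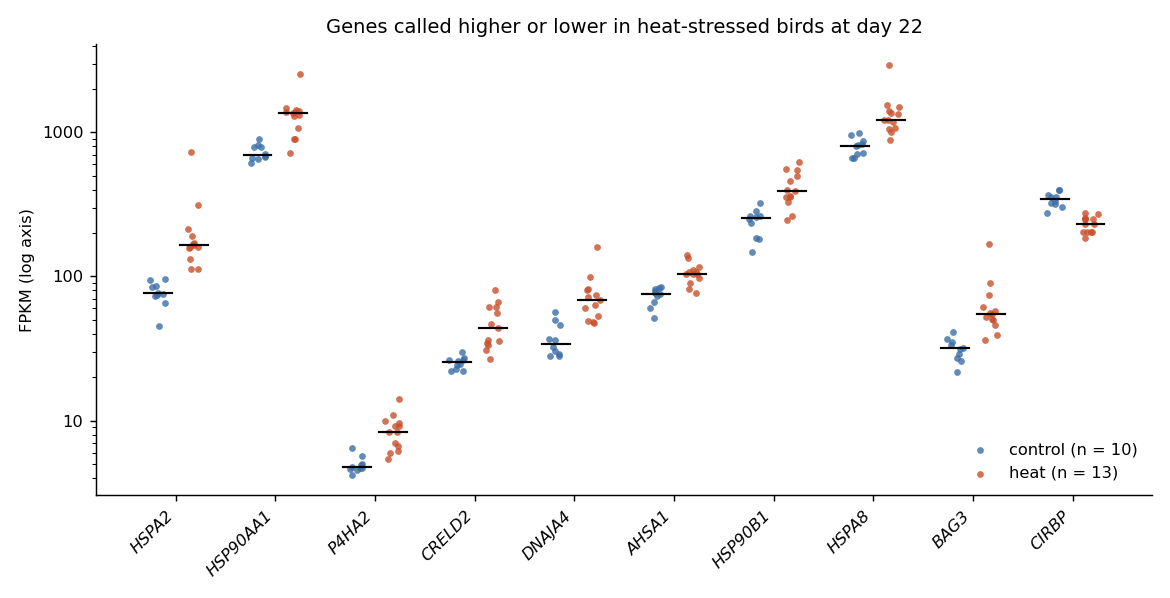
FPKM of 10 called genes on a log axis, with 1 point per bird for 10 control (blue) and 13 heat-stressed birds (orange) and a black bar at the median. The 13 orange HSPA2 values (112 to 734 FPKM) lie above all control values, the 13 orange CIRBP values (185 to 274 FPKM) lie below all control values, and the other 8 genes overlap.

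HSPA2 (chr5:52783871-52786191), an HSP70 chaperone, had the lowest value of 45.2, a median of 76.2 and a highest value of 96.7 FPKM in controls, against 112, 166 and 734 FPKM in heat-stressed birds. The groups did not overlap, and bird 1517 stood above the next heat-stressed bird, 1519, at 315 FPKM. The mean rose 2.78-fold, from 77.3 ± 14.9 (SD, n = 10) to 215 ± 164 FPKM (SD, n = 13), with a log2 fold change of 1.28 ± 0.23 (SE) and a limma adjusted p = 0.0284. Without bird 1517 the log2 fold change was 1.11. The RefSeq gene table (GRCg7b) gives HSP70 as a synonym of this gene, and the HSP70 genes are similar in sequence, so that some reads may be shared between them.

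HSPA8 (chr24:3069386-3074491) encodes the HSP70 that cells make without stress. Its values in controls were 660, 807 and 995 FPKM (lowest, median, highest), and in heat-stressed birds 888, 1228 and 2956 FPKM. All heat-stressed birds but 1557 were above every control. The log2 fold change was 0.71 ± 0.14 (SE), with a limma adjusted p = 0.0392.

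HSP90AA1 (chr5:49387596-49393958), the inducible cytosolic HSP90, had 610, 697 and 901 FPKM in controls and 713, 1354 and 2539 FPKM in heat-stressed birds. It exceeded every control in 11 of 13 heat-stressed birds. The mean rose from 729 ± 91.0 to 1322 ± 440 FPKM, a log2 fold change of 0.80 ± 0.15 (SE, limma adjusted p = 0.0284).

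Of the partners of these chaperones, DNAJA4, BAG3 and AHSA1 rose. DNAJA4 (chr10:3237486-3243075), a J-domain protein, had 27.9, 34.2 and 56.6 FPKM in controls and 47.3, 68.6 and 161 FPKM in heat-stressed birds, 9 of which were above every control. Its log2 fold change was 0.92 ± 0.18 (SE, limma adjusted p = 0.0321). BAG3 (chr6:29813213-29831306), which releases substrates from HSP70 and leads them to autophagy, had 21.7, 31.8 and 40.9 FPKM in controls against 36.5, 55.1 and 169 FPKM. Of the heat-stressed birds, 11 exceeded every control, and the log2 fold change was also 0.92 ± 0.18 (SE, limma adjusted p = 0.0392). AHSA1 (chr5:38509977-38515667), which speeds the ATP cycle of HSP90, had a narrower range, with 51.8, 76.2 and 85.2 FPKM in controls and 77.1, 105 and 141 FPKM in heat-stressed birds. Its log2 fold change was 0.51 ± 0.10 (SE, limma adjusted p = 0.0323), the smallest of the 10.

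Of 62 symbols listed for cytosolic chaperones and heat shock factors, 43 were in the table and 39 passed the filter on low values. This list also holds mitochondrial chaperones, such as HSPD1 and HSPE1, and the collagen chaperone SERPINH1. The 6 above rose, none fell and 33 were not called. The list had 17 members at an unadjusted p under 0.05 with more FPKM in heat, the 6 called among them, and 0 with less. Over all genes tested these shares were 2.01% and 2.92%. The list's median log2 fold change was 0.17, against -0.02 over all genes tested. The summed FPKM of the list was 3815 to 5153 in controls and 4671 to 10435 in heat-stressed birds, and these ranges overlap. The members named in the rest of this account of chaperones, except HSPA5, CRYAB, ATF4 and the called CRELD2 and HSP90B1, were picked with their values in view.

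The small heat shock proteins, which hold unfolded chains without ATP, had no call. HSPB8, a partner of BAG3, had a median of 8.34 FPKM in controls and 17.2 FPKM in heat-stressed birds, with 9 of 13 above every control and a limma adjusted p = 0.0992. HSP25, which the RefSeq table names HSPB9, had a median of 1.65 FPKM in controls and 5.01 FPKM in heat-stressed birds. Its heat values went from 2.15 to 101 FPKM, with 1517 and 1519 (34.4 FPKM) highest, and its limma adjusted p was 0.259. Without these birds, left out after seeing the data, HSP25 was called higher. CRYAB, the small heat shock protein with the highest level here, had 863 ± 170 FPKM in controls and 911 ± 206 FPKM in heat-stressed birds, a log2 fold change of 0.07 with a 95% interval of -0.21 to 0.34.

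Other HSP70 and HSP90 partners had more FPKM in heat without passing the test. HSPH1, a nucleotide exchange factor of HSP70, had a log2 fold change of 0.58 (limma adjusted p = 0.343), and CHORDC1, a partner of HSP90, 0.32 (limma adjusted p = 0.259) with 11 of 13 heat-stressed birds above every control. SUGT1 and ST13, which work with HSP90 and HSP70, had 0.39 and 0.32. The mitochondrial chaperonin pair HSPD1 and HSPE1 had 0.38 and 0.55, with limma adjusted p = 0.298 and 0.341. CCT2, a subunit of the cytosolic chaperonin for actin and tubulin, had 0.33 (limma adjusted p = 0.182), and its partners CCT5, CCT8 and TCP1 had 0.17, 0.01 and 0.09. SERPINH1, a heat-inducible chaperone of collagen, had 96.0 ± 39.0 FPKM in controls and 160 ± 52.1 FPKM in heat-stressed birds (log2 fold change 0.81, limma adjusted p = 0.287).

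In the endoplasmic reticulum, CRELD2 and HSP90B1 rose. CRELD2 (chr1:18657757-18668817), a secreted factor that mammalian cells make under stress of this compartment, had 21.9, 25.4 and 30.0 FPKM in controls and 26.8, 43.9 and 80.7 FPKM in heat-stressed birds. Its controls lay close together, and 12 of 13 heat-stressed birds were above all of them. The log2 fold change was 0.81 ± 0.15 (SE, limma adjusted p = 0.0311). HSP90B1 (chr1:54869422-54879269), the HSP90 of this compartment, had 147, 255 and 324 FPKM in controls and 248, 391 and 621 FPKM in heat-stressed birds. It exceeded every control in 11 of 13 birds, with a log2 fold change of 0.78 ± 0.15 (SE, limma adjusted p = 0.0392).

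HSPA5 (chr17:9591906-9595959), the HSP70 of the endoplasmic reticulum, had a larger mean ratio (2.41) but was not called. Its controls had 176, 250 and 525 FPKM and its heat-stressed birds 273, 549 and 1494 FPKM. Control 1432 held the value of 525 FPKM and the next control 315 FPKM, so that 7 of 13 heat-stressed birds were above every control. The log2 fold change was 1.13 ± 0.26 (SE, limma adjusted p = 0.0992). A locus that the table describes as similar to the same protein, LOC100858388, had a log2 fold change of 1.13 too (limma adjusted p = 0.298), and the reads of the pair may be shared.

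All 30 listed genes of this compartment that were in the table (44 symbols) passed the filter. Of these, 2 rose, none fell and 28 were not called. At an unadjusted p under 0.05, 16 had more FPKM in heat, the 2 called among them, and 0 had less, against 2.01% and 2.92% of all genes tested. The list median was 0.30, and 27 of 30 log2 fold changes were above 0. The summed FPKM was 1299 to 2109 in controls and 1932 to 3861 in heat-stressed birds. Disulphide isomerases were among those not called, with 0.54 for PDIA4 and 0.43 for PDIA6. So were DNAJB9 (0.51), a partner of HSPA5, HERPUD1 (0.62) and DERL3 (0.38), which act in the removal of misfolded protein, and SDF2L1 (0.42). XBP1, a transcription factor of the unfolded protein response, had 0.42. Outside the list, ERP29 had 0.41 (limma adjusted p = 0.0992), and LOC100859104, which the RefSeq table names CALR, a chaperone of glycoproteins, had 0.59 (limma adjusted p = 0.136).

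EIF2AK3, a sensor of unfolded protein in this compartment, was 9.08 ± 1.37 FPKM in controls and 9.18 ± 1.44 FPKM in heat-stressed birds, and another sensor, listed as ERN1 and named ERN2 by RefSeq, was 2.78 ± 0.873 and 2.84 ± 0.679 FPKM. Their log2 fold changes were 0.01 (95% interval -0.17 to 0.19) and 0.04 (-0.23 to 0.31). ATF4, the transcription factor downstream of EIF2AK3, had medians of 323 and 359 FPKM and a log2 fold change of 0.07. These are mRNA levels, and the activity of the 3 proteins was not measured. None of the 28 tested genes of the integrated stress response and amino acid metabolism was called or had an unadjusted p under 0.05.

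**Figure D2:**
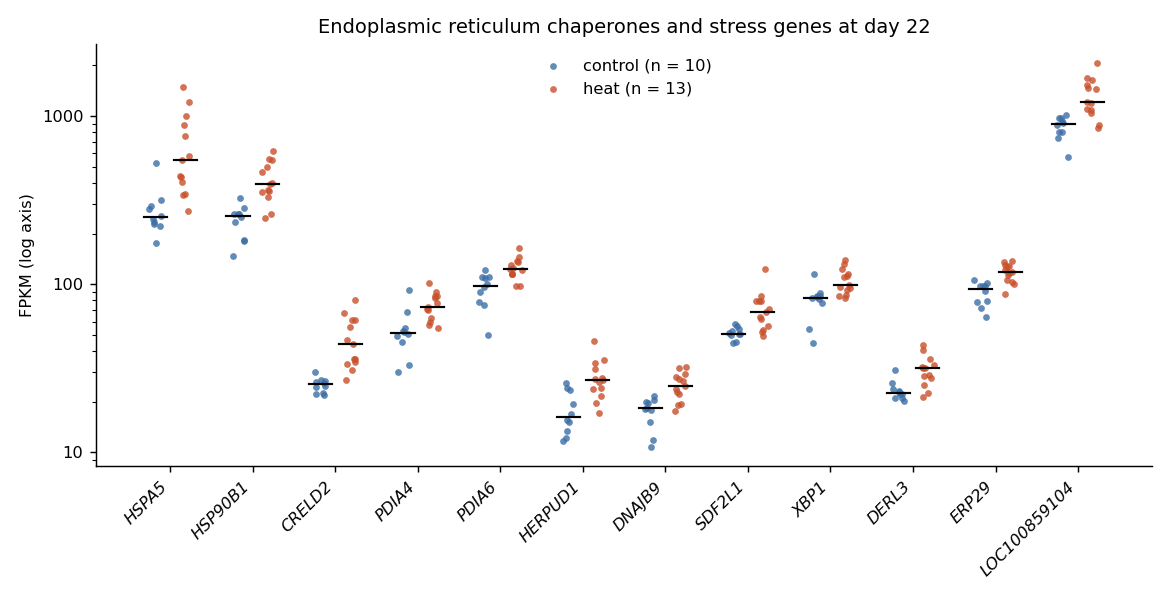
FPKM of 12 genes of the endoplasmic reticulum on a log axis, with 1 point per bird for 10 control (blue) and 13 heat-stressed birds (orange) and a black bar at the median. CRELD2 and HSP90B1 were called, and the other 10, among them HSPA5 with control 1432 at 525 FPKM, were not.

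P4HA2 was called without being a member of the chaperone lists. P4HA2 (chr13:16062860-16086914), a subunit of the enzyme that hydroxylates proline in collagen, had 4.20, 4.74 and 6.50 FPKM in controls and 5.44, 8.35 and 14.1 FPKM in heat-stressed birds, 10 of which were above every control. Its log2 fold change was 0.64 ± 0.12 (SE, limma adjusted p = 0.0284). It stood in the list of hypoxia and glycolysis, of which the other 22 tested genes were not called and whose median was 0.02. The collagen and matrix genes had no call among 30 tested, a median of 0.02 and summed FPKM of 1182 to 4774 in controls and 1881 to 4926 in heat-stressed birds.

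CIRBP (chr28:2971748-2976244), listed as the cold-inducible RNA-binding protein, fell in heat, with every heat-stressed bird below every control. The RefSeq table names the same Entrez gene RBM3, the other cold-inducible RNA-binding protein of vertebrates, with CIRBP as a synonym, so which of the pair it is stays uncertain. Its controls had 278, 344 and 400 FPKM and its heat-stressed birds 185, 231 and 274 FPKM. The highest heat-stressed bird, 1557, was just under the lowest control, 1553. The mean went from 343 ± 40.1 (SD, n = 10) to 231 ± 29.4 FPKM (SD, n = 13), a log2 fold change of -0.57 ± 0.08 (SE) with a limma adjusted p = 0.00177, the smallest of all genes. It was called without any 1 of the 23 birds, with adjusted p up to 0.00658.

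The fall of CIRBP was of like size in both runs of library numbers that hold both groups. In birds 1517 to 1526 it went from 340 ± 30.1 (SD, n = 4) to 236 ± 30.7 FPKM (SD, n = 5), and in birds 1549 to 1559 from 338 ± 52.2 (n = 4) to 232 ± 28.2 FPKM (n = 6). Neither run alone gave a call in limma. HSPA2 went from 82.3 ± 10.7 to 308 ± 249 FPKM in the lower run and from 75.3 ± 21.6 to 153 ± 27.4 FPKM in the higher run. All 11 called genes kept their direction in both runs, with log2 fold changes of the higher genes from 0.51 to 1.59 and from 0.42 to 1.05. The genes were called with these same birds included, so the shared direction is not independent of the calls. In the limma fit of an interaction, added after seeing the data, 0 of 8233 genes differed in their heat effect between the runs at an adjusted p under 0.05. An unadjusted p under 0.05 was found for 366 of the 8233, where 5% would be reached by chance alone. Of the 11 called genes these were only DNAJA4 (0.91 larger in the lower run, unadjusted limma p = 0.0205) and P4HA2 (0.42 larger, unadjusted limma p = 0.0443). With 4 to 6 birds per group and run, this fit cannot show that the runs agree.

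The other RNA-binding and splicing genes of the list were not called (21 of 22 tested). SRSF5, a splicing factor chosen after its values were seen, had 49.7, 87.0 and 155 FPKM in controls and 23.3, 48.9 and 88.5 FPKM in heat-stressed birds, a log2 fold change of -0.82 ± 0.21 (SE) with a limma adjusted p = 0.24. The list median was -0.06, with 16 of 22 log2 fold changes below 0. At an unadjusted p under 0.05, 4 members, CIRBP among them, had less FPKM in heat and 1 had more, against 2.92% and 2.01% of all genes tested. KDM4B, a histone demethylase outside the lists and chosen in the same way, had medians of 17.8 and 13.6 FPKM, 9 of 13 heat-stressed birds below every control and a limma adjusted p = 0.0992.

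The heat-stressed birds differed in how far these genes rose. Bird 1517 had the highest value of the 13 for 8 of the 10 higher genes, while CRELD2 was highest in bird 1283. Bird 1557 had the lowest for 7 of the 10 and was above every control for 1 of them, HSPA2. The other 12 birds were above every control for 5 to 10 of the 10 genes. Bird 1557 also had the highest CIRBP of the heat-stressed birds, and its FKBP5 of 78.3 FPKM was next to that of 1517 (80.2 FPKM).

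Relations between single genes were computed within each group. In the heat-stressed birds Pearson's r between HSPA2 and HSP90AA1 was 0.88 (permutation p = 1e-05, the smallest that 100000 resamples can give) and Spearman's rho 0.86 (permutation p = 0.00039), with Benjamini-Hochberg adjusted p = 0.00012 and 0.00294 over 12 relations computed. For HSPA2 and HSPA5 r was 0.78 (permutation p = 0.00014, adjusted p = 0.00084) and rho 0.85 (permutation p = 0.00049, adjusted p = 0.00294). Without birds 1517 and 1519, the farthest from the median of HSPA2, r was 0.89 and 0.60, and within birds 1549 to 1559 (n = 6) it was 0.95 and 0.79. HSPA2 and CIRBP had r = -0.31 (permutation p = 0.322, adjusted p = 0.552) and rho = -0.24 (permutation p = 0.434, adjusted p = 0.579). In the 10 controls r was 0.72 for HSPA2 with HSP90AA1 (permutation p = 0.0151, adjusted p = 0.0362), rho was 0.62 (permutation p = 0.0595, adjusted p = 0.143), and r without controls 1524 and 1552 was 0.57. For HSPA2 with HSPA5 in controls r was 0.49 (permutation p = 0.149, adjusted p = 0.298) and rho 0.54 (permutation p = 0.115, adjusted p = 0.23), and r was 0.06 without the same controls. These pairs were chosen after their values were seen, and the groups were not tested against each other.

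**Figure D3:**
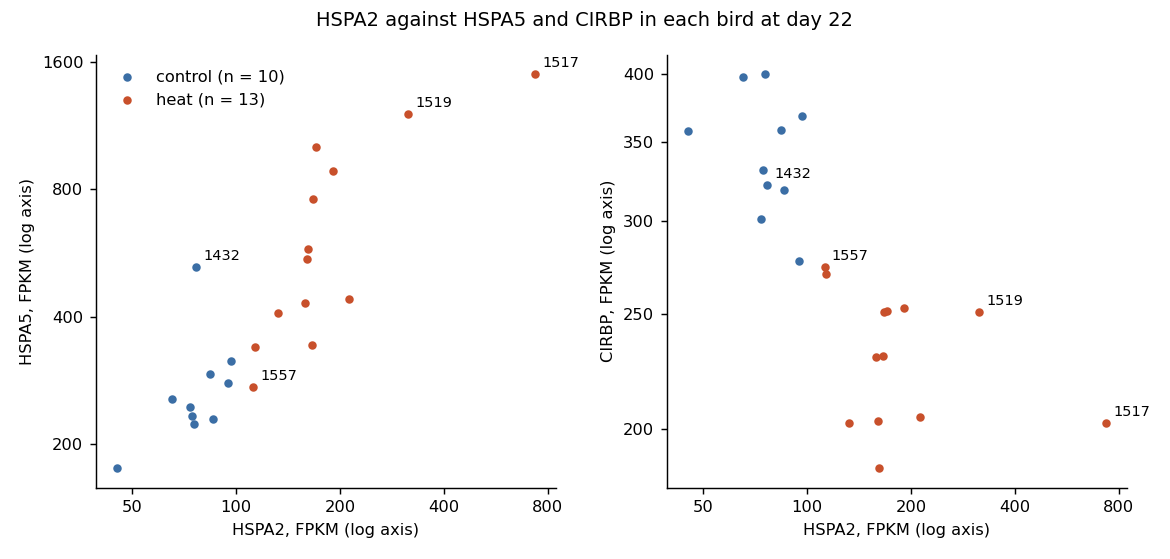
HSPA2 on the horizontal axis against HSPA5 (left) and CIRBP (right), all in FPKM on log axes, with 1 point per bird for 10 control (blue) and 13 heat-stressed birds (orange) and birds 1432, 1517, 1519 and 1557 numbered. HSPA5 went up with HSPA2 among the heat-stressed birds (r = 0.78). CIRBP showed no clear relation with HSPA2 in them (r = -0.31, permutation p = 0.322). Bird 1557 lay next to the controls in both panels.

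The glucocorticoid response, which the adrenal hormones of the stress axis set off in many tissues, had no call among 21 tested genes and a list median of 0.00, which was -0.04 with every library rescaled to the same total. FKBP5, a co-chaperone of the glucocorticoid receptor and a common readout of it, had 17.2, 33.6 and 41.9 FPKM in controls and 28.1, 39.3 and 80.2 FPKM in heat-stressed birds. Its log2 fold change was 0.38 with a 95% interval of 0.02 to 0.74 and a limma adjusted p = 0.991. SGK1, chosen after its values were seen, had medians of 21.9 and 18.6 FPKM, with 10 of 13 heat-stressed birds below every control and a limma adjusted p = 0.298. The most abundant members, GLUL and the gene listed as TSC22D3 (TSC22D4 in RefSeq), had log2 fold changes of -0.11 and 0.17. The receptor itself, NR3C1, named like SGK1 after its values were seen, had 5.28 ± 0.645 and 5.40 ± 1.28 FPKM.

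Immediate early genes (18 tested), clock genes (15) and hormones with their processing enzymes (11) had no call either. JUN had medians of 65.9 and 67.1 FPKM and BTG1, a growth arrest gene, 161 and 183 FPKM. CRY1 and TEF, the most abundant clock genes, had log2 fold changes of 0.16 and -0.18, and the list median was -0.06. POMC had 0 to 45.4 FPKM in controls and 0.0828 to 89.2 FPKM in heat-stressed birds, and its 95% interval of -1.64 to 2.19 leaves changes in either direction. CGA, the alpha chain shared by the glycoprotein hormones, had 0.226 to 113 FPKM in controls and 0.381 to 331 FPKM in heat-stressed birds. FNIP1, a partner of folliculin in nutrient sensing by TOR, had medians of 18.0 and 16.8 FPKM, and its list of 27 tested genes had no call and no unadjusted p under 0.05.

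The lists of the proteasome, ribosomal proteins, respiratory chain, oxidative stress and cholesterol synthesis had medians near 0. The proteasome list had no call in 28 genes and a median of -0.01 (0.01 after rescaling to the median gene), with log2 fold changes of -0.09 for PSMB7 and 0.09 for PSMA3. The ribosomal proteins had no call in 50 genes and a median of 0.08, with 44 of 50 above 0. The respiratory chain (34 genes) had a median of 0.06, oxidative stress genes (25) 0.01 and cholesterol synthesis (19) 0.03, of which the last 2 were -0.03 and -0.02 on the common total. The interferon response had a median of -0.20 with 14 of 15 genes below 0 and none at an unadjusted p under 0.05, but 0.09 among birds numbered 1500 and above. The neurohypophysis and hypothalamic list had -0.18 in 21 genes and 0.29 in those birds.

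The summed markers of cell types overlapped between the groups. The summed FPKM of 40 myelin and oligodendrocyte symbols (24 in the table) was 13785 to 39856 in controls and 11670 to 36201 in heat-stressed birds. For astroglia and pituicytes it was 2438 to 4045 and 2581 to 4386 FPKM, and for microglia and leukocytes 128 to 226 and 116 to 543 FPKM. For endothelium and mural cells it was 122 to 358 and 149 to 809 FPKM. No gene of these 4 lists was called in limma, and their medians lay between -0.03 and 0.03. The most abundant glial genes, VIM and CLU, had log2 fold changes of 0.10 and 0.23. Blood cells (3 tested), skeletal muscle (5) and pineal genes (2) had no call. Nor had the insulin-like growth factor system (15), thyroid and sex steroid receptors (12), TRP channels and other thermosensors (8), the cell cycle (27) and housekeeping genes (8).

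**Figure D4:**
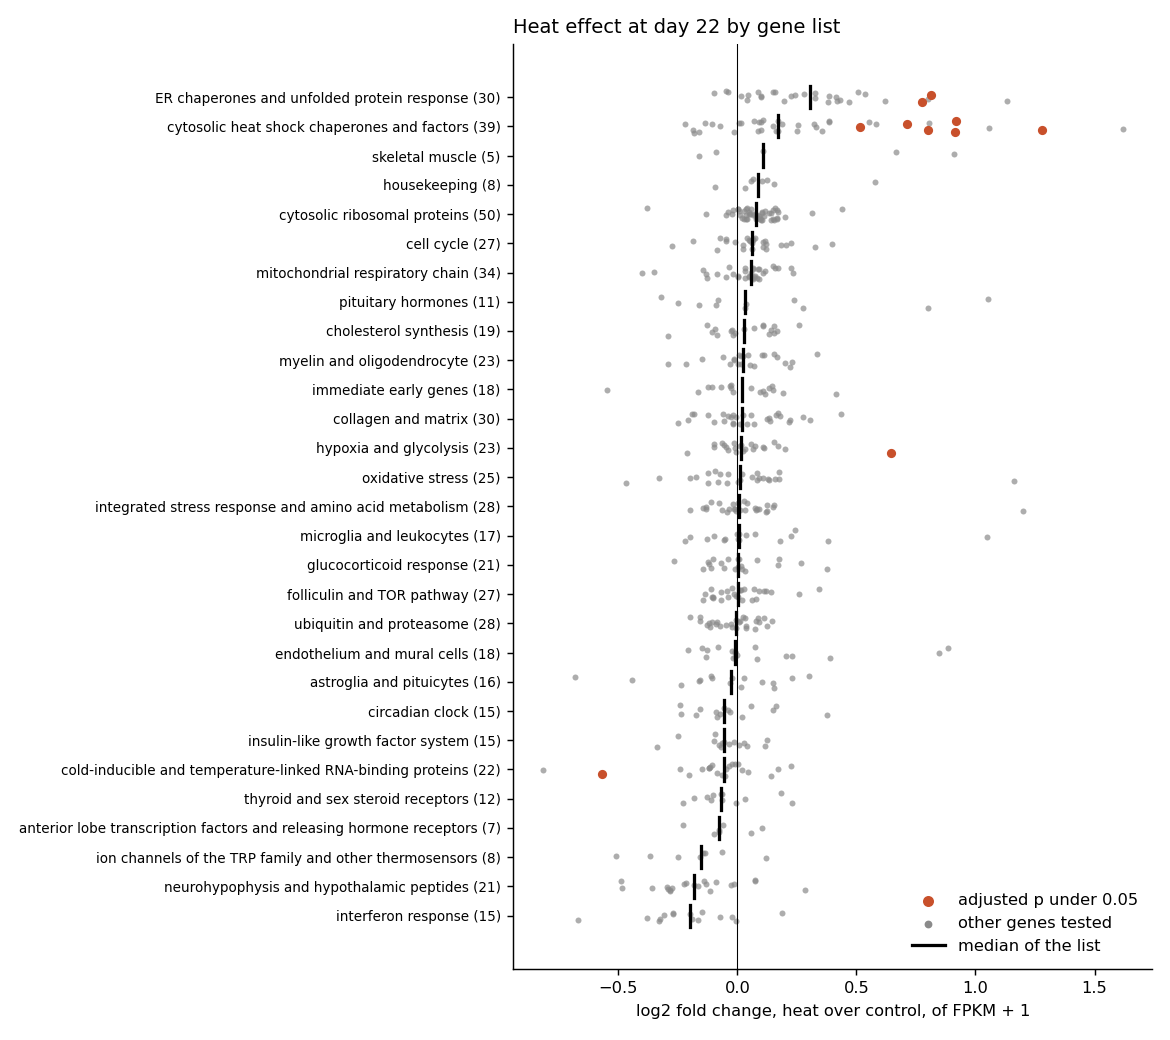
Log2 fold change of FPKM + 1, heat over control at day 22, for the tested members of each gene list with at least 5 of them (number in brackets), with called genes in orange, other genes in grey and the list median as a black bar. The medians of the endoplasmic reticulum list (0.30) and of the cytosolic chaperones (0.17) are the highest, and the called genes shown lie in these lists, in the RNA-binding list (CIRBP) and in the hypoxia and glycolysis list (P4HA2).

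At day 21, which the labels place before the treatment, 15 control birds in a separate table had 80.0 ± 20.5 FPKM of HSPA2, 526.4 ± 157 FPKM of HSP90AA1, 154 ± 43.1 FPKM of HSPA5 and 332 ± 62.5 FPKM of CIRBP (SD). The values of HSPA2 and CIRBP were 53.6 to 117 and 273 to 495 FPKM. These tables were made separately, and no test was run between them. FKBP5 had 69.0 ± 19.0 FPKM at day 21, against 33.0 ± 7.06 FPKM in the day 22 controls.

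On later days the same genes were read from the table of each day, and the hours of heat before collection differed between days. At day 26 (5 heat-stressed, 6 control birds) HSPA2 was 77.3 ± 54.3 FPKM in controls and 834 ± 436 FPKM in heat-stressed birds, a log2 fold change of 3.46 (limma adjusted p = 0.00811). Of the 10 genes higher at day 22, 9 were tested at day 26, all 9 were above 0 and 6 were called higher (HSPA2, HSP90AA1, DNAJA4, AHSA1, HSPA8 and BAG3). In all, 46 of the 9079 genes tested that day were called higher (0.507%) and 7 lower (0.0771%). HSPA5, not called at day 22, had 2.02 (limma adjusted p = 0.0269), and HSP25 had 6.15 (limma adjusted p = 0.0185). CIRBP was not called at day 26, with 326 ± 76.5 FPKM in controls and 309 ± 89.0 FPKM in heat-stressed birds and a log2 fold change of -0.09 (limma adjusted p = 0.898). The heat-stressed and control birds of day 26 came in part from different runs of library numbers.

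At days 32, 40 and 42 limma called 0 of 10282, 8831 and 9223 genes tested. An unadjusted p under 0.05 was reached by 609, 416 and 242 of them, where 5% would be reached by chance alone. CIRBP had log2 fold changes of -0.07, -0.00 and -0.32 on these days, and HSPA2 0.35, 0.31 and 0.69. Of the 10 genes higher at day 22, 7, 8 and 9 had log2 fold changes above 0 at days 32, 40 and 42. At day 42, with 17 heat-stressed and 10 control birds, HSP90AA1 had a log2 fold change of 0.77. Above every control were 12 heat-stressed birds for HSPA2 and 13 for HSP90AA1, with a limma adjusted p = 0.999 each. The control glands of day 42 were unlike those of day 22 in other genes. Mean GH was 72003 FPKM against 25.8 FPKM at day 22, and mean CRYAB 0.458 FPKM against 863 FPKM. Whether this bears on the heat effects of the 2 days was not tested. The effects of different days were not tested against each other.

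**Figure D5:**
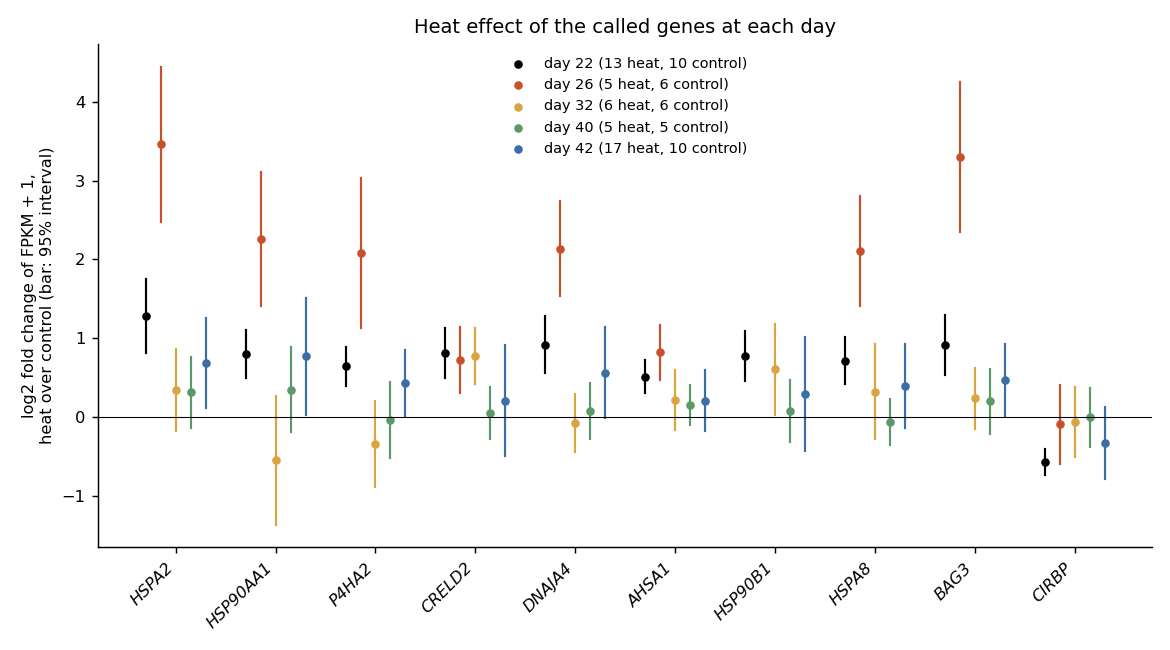
Log2 fold change of FPKM + 1, heat over control, of 10 genes called at day 22 on days 22, 26, 32, 40 and 42, with 95% intervals as bars and the number of birds in the legend. HSPA2 (3.46) and BAG3 (3.30) are highest at day 26, while CIRBP is furthest from 0 at day 22 (-0.57).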

How the data were processed

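RNA-seq values of 23 pituitary libraries of day 22 were used. Per the labels and the study's methods, the authors aligned reads with Bowtie and TopHat to galGal4 and deposited FPKM from Cufflinks, 1 table per day, with versions and any scaling between libraries not given in the sources used here. The columns of day 22 with no matching label (3) were left out, and 2 samples of day 42 had no column. The depth in reads was not analysed here, counting error was therefore not estimated, and 1 FPKM is worth fewer fragments in shallow libraries. Of 14174 genes, 8256 whose mean reached 1 FPKM entered limma 3.58.1 (R 4.3.3) on log2(FPKM + 1) with a mean trend and no covariates. This scale understates changes of low genes. On simulated data for this comparison (8256 genes, 200 changed), 67.5%, 87.5% and 97.5% of genes changed 1.5-, 2- and 4-fold were recovered, with 13, 17 and 18 false calls, and 0 calls were made with none changed. The simulated spread was normal and independent between genes, and the change was added to log2(FPKM + 1). With 200 genes changed an adjusted p is easier to pass than with few, so the recovered shares may be too high for the real data. Permutation tests were two-sided with 100000 resamples in Python 3.11.15 with scipy 1.17.1.

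The genes named were the called genes, called members of the lists, the 2 most abundant members of a list without one, and CIRBP, FKBP5, HSPA5, HSP90AA1, HSPA8, CRYAB, FNIP1 and 6 hormone genes. Other genes are said in the text to be chosen after seeing them. The comparison and the lists were chosen with earlier results of these data known. RefSeq names are from GRCg7b. Alternatives were a pseudocount of 0.1, no filter, a minimum mean of 5 FPKM, rescaling to the median gene or to the same total (TPM), a Wilcoxon rank-sum test, robust and weighted limma, subsets and runs of library numbers, and leaving out each library. A part of the named genes, 1 called gene among them, is not reported here. Promoter sequences were not analysed here.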

Additional observations from a re-analysis of the deposited data

Results flagged for a closer look

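Among 46 genes examined, 8 control values stood apart from the other controls by Dixon's criterion, which flags about 1 in 20 groups by chance. Control 1432 was highest for HSPA5 (525 FPKM) and DERL3 (31.1 FPKM), control 1526 for CGA (113 FPKM) and TSHB (11.5 FPKM), and control 1552 for HSPE1 (156 FPKM). The lowest values were HSPD1 in control 1552 (47.2 FPKM), CHORDC1 in control 1524 (6.02 FPKM) and FKBP5 in control 1525 (17.2 FPKM). Groups of more than 10 birds were not examined, so the heat-stressed birds of day 22 are outside this count.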

How the results depend on the processing

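All 11 called genes kept their direction under the 38 alternatives that gave values. These alternatives use the birds from which the genes were called, or a part of them, and are not a replication. CIRBP stayed called in 36, and the exceptions were the 2 runs of library numbers alone. The number of higher genes, 10, was 13 with quality weights and 6 with rescaling to the median gene and with the Wilcoxon test. It was 0 without the filter on low values (12970 genes tested), with TPM, among birds numbered 1500 and above with or without the run as covariate, in either run alone, and without controls 1432 and 1437, which was chosen after seeing the data. In the fits with 0 the 10 genes had unadjusted p up to 0.0665. The number of lower genes was 3 with quality weights (KDM4B and ZNF516 added) and 0 in either run alone. Leaving out 1 bird gave 0 to 11 higher and 1 to 2 lower genes, with adjusted p of the higher genes up to 0.113. The cause was not tested. Without heat birds 1517 and 1519 there were 8 higher genes, of which HSP25 was not among the 10. Without 1282 and 1283 there were 7, of which CCT2 was not among the 10. Both subsets were chosen after seeing the data. HSPA5 was called with quality weights (adjusted p = 0.0342) and without heat bird 1557 (adjusted p = 0.0371). No paired analysis was possible because the groups share no replicate numbers. Relative depth was lowest in control 1552 (0.507) and highest in control 1437 (1), and leaving out either bird gave 0 higher genes. Whether depth bears on the calls was not tested.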
